A study of Mus musculus with 64 samples.

Results

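The Hox genes code for homeodomain transcription factors, and the 38 examined here were taken as a list of gene symbols from 34328 protein-coding and lncRNA genes of the mouse. They lie in 4 clusters of 10 (Hoxa), 10 (Hoxb), 9 (Hoxc) and 9 (Hoxd) genes. By paralogue group, 11 were anterior (groups 1 to 4), 11 central (groups 5 to 8) and 16 posterior (groups 9 to 13). The assay was CUT&RUN: a nuclease is brought to the target by an antibody and cuts free the DNA around it. The cells were CD23+ B cells (CD23 marks mature follicular B cells) from the spleens of female F1 mice, and the groups were unstimulated cells (0 h) and cells given 1 µM CpG, a ligand of Toll-like receptor 9, for 12 h or 24 h. Every group shared the same cross, of a C57BL/6 mother heterozygous for an Xist deletion with a M. m. castaneus father, so no group lacked the hybrid background, and the X inactivation of these mice is skewed. Antibodies were against the histone marks H3K27me3 (3, 3 and 4 libraries at 0, 12 and 24 h), H2AK119Ub (4, 3 and 5), H3K27ac (3 at each time) and H3K9me3 (4 at each time), and against the Polycomb subunits Suz12 and Ring1B (3 at each time). Of 64 samples, 61 had a peak list here, and the other 3, labelled IgG, were not analysed here. The titles call the replicates biological without naming animals, so p-values measure the spread between these libraries.

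Hox genes specify position along the body axis, and their order on the chromosome follows their order of use from head to tail. In cells that do not use them, the clusters are textbook targets of Polycomb repressive complexes: PRC2, which holds Suz12, lays down H3K27me3, and PRC1, whose catalytic subunit is Ring1B, lays down H2AK119Ub. In blood, several Hox genes act in stem and progenitor cells and are largely switched off as cells differentiate.

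Coverage is the percent of a member's region (gene body with 2 kb on each side) that lay in peaks of one library. Values below are levels in percent and differences in percentage points. Because a library pools many cells, a mark present in more cells and a mark that is stronger in each cell cannot be told apart. Regions of 27 members overlap the region of another member, so neighbouring genes partly share a value. The 4 intervals, from the first to the last member region in build mm10, are chr6:52160417-52262880 for Hoxa, chr11:96192316-96370254 for Hoxb, chr15:102919131-103038856 for Hoxc and chr2:74666225-74767142 for Hoxd. They span 102, 178, 120 and 101 kb.

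The libraries differed in how much was called. Covered autosomal length was 29.7 to 94.4 Mb at 0 h, 80.9 to 132 Mb at 12 h and 201 to 311 Mb at 24 h for H3K27me3, and 27.7 to 58.5, 100 to 161 and 59.1 to 213 Mb for H2AK119Ub. For Suz12 it was 48.9 to 74.8 Mb over all libraries and for Ring1B 56.3 to 101 Mb. Libraries that stood apart at the Hox genes were H3K27me3 0 h replicates 1 and 3, H2AK119Ub 24 h replicate 4, and replicate 1 at 12 h of both Suz12 and Ring1B. The label of a B cell was borne out by H3K27ac, a mark of active promoters and enhancers: the regions of 12 B cell marker genes were covered at means of 53.7, 83.8 and 76.3% at 0, 12 and 24 h, and H3K27me3 covered 0% of them in every library. The same means were 4.3, 6.7 and 6.03% for 8 T cell markers, 0.228, 1.9 and 2.96% for 8 myeloid markers, and 0, 2.37 and 0.353% for 6 erythroid markers. Single genes departed from these means. The T cell marker Cd3d was at 34.4, 43.7 and 41.6%, and 3 of the 8 T cell markers had any H3K27ac peak. The B cell marker Cr2 was at 2.57, 19.4 and 8.85%. H3K27me3 covered 7.28, 11.5 and 33.2% of the T cell, 10.9, 28.4 and 44.1% of the myeloid and 5.08, 23.4 and 48.8% of the erythroid marker regions.

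No Hox gene region held a peak of H3K27ac in any of 9 libraries, or a peak of H3K9me3, the mark of constitutive heterochromatin, in any of 12 libraries. Over all genes, the mean covered percent in single libraries was 1.21 to 11.9% for H3K27ac and 0.153 to 2.77% for H3K9me3. Peaks of H3K27me3 and of H2AK119Ub were found at all 38 Hox genes, and peaks of Suz12 and of Ring1B at 36, the exceptions for both subunits being Hoxa5 and Hoxb1. The peak lists can hide part of some regions: only 33.9% of the Hoxa5 region, 61.2% of Hoxa2, 73% of Hoxa3, 81.9% of Hoxa6 and 93.5% of Hoxb8 lay in a peak of at least 1 of the 61 libraries, while the other 33 regions were fully reached.

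Promoter sequence was available for 22 of the 38 members, in 24 windows of 250 bases upstream of a RefSeq gene start (GRCm38.p6, the assembly of mm10). The number of CG dinucleotides, the sites of DNA methylation, had a median of 12.5 (2 to 35) in these windows, against 6 over 32619 promoters. GC content had a median of 58.6%, against 52.4%. The letters CCAAT, on either strand, were in 14 of 24 Hox windows, against 34% of all promoters, and TATAAA, on either strand, in 4 of 24, against 12.4%. The 4 windows printed below differ in CG content and in peak occupancy but do not span the full range of either. Each runs 5′ to 3′ in the direction of the gene, with CG in capitals. They are Hoxa9 (chr6:52227371-52227620, minus strand), Hoxa5 (chr6:52204588-52204837, minus strand), Hoxa13 (chr6:52260881-52261130, minus strand) and Hoxb4 (chr11:96318017-96318266, plus strand).
Hoxa9: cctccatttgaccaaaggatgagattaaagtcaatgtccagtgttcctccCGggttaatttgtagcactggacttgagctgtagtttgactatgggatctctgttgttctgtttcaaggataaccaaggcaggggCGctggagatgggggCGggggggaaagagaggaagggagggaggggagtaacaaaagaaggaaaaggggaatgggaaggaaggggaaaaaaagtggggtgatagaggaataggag
Hoxa5: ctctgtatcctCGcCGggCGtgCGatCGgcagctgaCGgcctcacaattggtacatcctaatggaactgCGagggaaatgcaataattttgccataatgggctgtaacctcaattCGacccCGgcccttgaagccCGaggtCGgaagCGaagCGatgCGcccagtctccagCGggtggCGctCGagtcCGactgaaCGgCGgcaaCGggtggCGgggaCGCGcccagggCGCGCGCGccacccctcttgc
Hoxa13: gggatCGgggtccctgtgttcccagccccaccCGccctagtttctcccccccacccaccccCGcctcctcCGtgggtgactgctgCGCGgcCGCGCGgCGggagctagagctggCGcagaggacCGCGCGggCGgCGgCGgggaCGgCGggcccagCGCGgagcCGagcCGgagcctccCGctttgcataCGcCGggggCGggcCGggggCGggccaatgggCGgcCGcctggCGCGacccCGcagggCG
Hoxb4: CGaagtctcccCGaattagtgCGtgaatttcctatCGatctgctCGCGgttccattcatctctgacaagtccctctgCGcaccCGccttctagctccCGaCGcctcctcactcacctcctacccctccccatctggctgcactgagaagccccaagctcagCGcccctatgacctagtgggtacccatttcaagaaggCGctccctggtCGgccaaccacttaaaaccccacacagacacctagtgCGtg
The Hoxa9 window has 3 CG and lay in a peak in 10 of 10 H3K27me3, 12 of 12 H2AK119Ub, 9 of 9 Suz12 and 9 of 9 Ring1B libraries. The Hoxa5 window has 28 CG and lay in a peak in 1 of 10 H3K27me3 and 3 of 12 H2AK119Ub libraries, and in 0 of 9 of either subunit. The Hoxa13 window, with 35 CG, was in a peak in 8 of 10, 12 of 12, 9 of 9 and 7 of 9 libraries of H3K27me3, H2AK119Ub, Suz12 and Ring1B, and the Hoxb4 window, with 14 CG, in 1 of 10, 3 of 12, 4 of 9 and 2 of 9. No link of CG content and peaks is read from these 4 windows. The Hoxa2 window, with 6 CG, was in a peak in 0 of 10, 0 of 12, 0 of 9 and 0 of 9 libraries of the same antibodies. The Hoxa3 window, with 18 CG, was in one in 6 of 10, 12 of 12, 9 of 9 and 9 of 9. Whether CG content and peaks go together over the 24 windows was not tested. The mean share of the 24 Hox windows that lay in an H3K27me3 peak was 43.1, 51.4 and 85.4% at 0, 12 and 24 h, against 7.21, 12.5 and 22.9% of all promoters. For H2AK119Ub the shares were 57.3, 61.1 and 67.5%, against 5.15, 17 and 22.8%.

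The Hox genes were among the broadly covered genes for all 4 Polycomb antibodies. H3K27me3 covered a mean of 37.1 ± 27.2%, 54.3 ± 5.68% and 85.2 ± 6.81% of their regions (0, 12 and 24 h, with SD over 3, 3 and 4 libraries), against 4.42, 7.91 and 16.3% over all genes. H2AK119Ub covered 47.2 ± 9.57%, 59.3 ± 5.53% and 66.6 ± 13.6% (n = 4, 3 and 5), against 3.13, 10.8 and 13.4% over all genes. Suz12 covered 60.4 ± 10.6%, 41.9 ± 12.5% and 62.5 ± 4.04%, and Ring1B 36.5 ± 6.89%, 26.0 ± 9.33% and 50.5 ± 1.87% (n = 3 each), against 4.59 to 6.56% and 5.43 to 6.94% over all genes. The 12 h mean was below both others for the subunits and between them for the marks. The 0 and 12 h libraries overlapped for both subunits, and after autosomal scaling the 24 minus 0 h differences were -51.5 points for H3K27me3 and -68.7 for H2AK119Ub. Whether the courses differ was not tested.

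**Figure D1:**
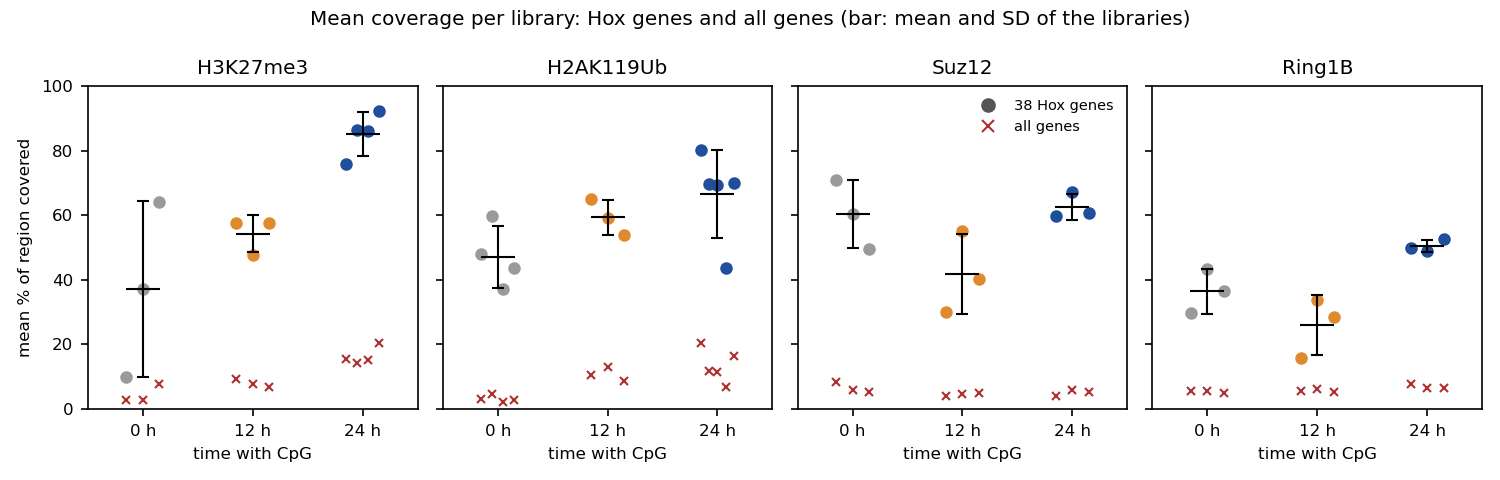
Mean percent of region covered (y axis) for the 38 Hox genes (circles) and all genes (crosses) in each library at 0, 12 and 24 h with CpG (x axis), 1 panel per antibody, with the mean and SD of the libraries. Hox means for H3K27me3 at 24 h, 76 to 92.4%, lie above those at 0 h, 9.89 to 64.2%, but the mean difference is -51.5 once libraries are brought to 1 autosomal coverage.

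H3K27me3 covered the Hox genes more widely at 24 h than at 0 h as deposited. The limma fit called 20 of 38 members higher at 24 h, against 56.5% of the 11914 genes tested, and 0 lower, against 0.00839%. The members' share lies near that background, so the count is not a result about the Hox genes. The median difference was 52.6 percentage points over the members and 28.9 over all genes tested. A gene is called here when its Benjamini-Hochberg adjusted p from limma's F-test over the 3 times, and its unadjusted p between the times, are both under 0.05. Only genes with a peak in at least 3 libraries of an antibody were tested. A gene with peaks at 24 h alone could enter through that group, among the members as among all genes. Between 12 and 0 h, 4 members were higher, against 8.41% of all genes, and between 24 and 12 h 14 were, against 46.4%. The difference in the Hox mean was 48.1 points, and 34.5 to 61.7 when 1 library was left out. After autosomal scaling it was -51.5, and 2 members were called higher at 24 h (16% of all genes) and 2 lower (3.75%). A region at 100% in every library falls under that scaling by construction. A region broadly covered at 0 h had no room to rise in proportion to the covered autosomal length. The count of 20 became 12 without 0 h replicate 1, 12 without 0 h replicate 2, 13 without 24 h replicate 2 and 11 without 24 h replicate 4, and 28 without 0 h replicate 3. The count of 4 at 12 h became 2 without 0 h replicate 1, 0 h replicate 2 or 12 h replicate 1, and 16 without 0 h replicate 3, and the count of 14 became 9 without 24 h replicate 4.

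The 5 largest differences were in Hoxa and Hoxb. Hoxb5, which marks long-term blood stem cells in mouse bone marrow, was covered at 0, 0 and 12.6% in the 0 h libraries, 49.8, 41.1 and 68.8% at 12 h, and 100% in each of the 4 at 24 h. The 3 times did not overlap, and the 24 minus 0 h difference was 95.8 ± 8.81 points (SE, limma adjusted p = 0.000196). Hoxa4, which takes part in patterning the neck vertebrae, had no coverage at 0 or 12 h and 83.5, 100, 48.7 and 100% at 24 h (difference 83 ± 11.6 points, limma adjusted p = 0.000725). Hoxa4 passed the filter for testing only through its 24 h peaks, so its p-value is no separate support for a rise. Hoxb6 was at 0, 9.57 and 42.2% at 0 h, 39.2, 58.1 and 27.8% at 12 h, and 77.2, 90.9, 100 and 100% at 24 h. Its 24 h libraries were above all others (74.7 ± 12.4 points, limma adjusted p = 0.00329), while 0 and 12 h overlapped.

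Of the other Hoxb genes, Hoxb1, Hoxb9 and Hoxb3 had the next largest differences as deposited. Hoxb1, which gives a hindbrain segment its identity, was at 0, 19.4 and 70.5% at 0 h, 100, 63.2 and 81.6% at 12 h, and 100% in all 4 libraries at 24 h. The 24 and 0 h groups did not overlap, and the difference was 70.1 ± 15.8 points (limma adjusted p = 0.0146) but -2.77 after autosomal scaling. Hoxb9, a patterning gene of the thoracic skeleton, was at 0, 35.8 and 65.5% at 0 h, 56.6, 51.3 and 39.5% at 12 h and 100% in all 4 at 24 h, a difference of 66.2 ± 13.8 points (limma adjusted p = 0.00824) that was -24.8 after scaling. Hoxb3, active in the hindbrain and pharyngeal arches, was at 8.32, 2.45 and 34.1% at 0 h, 27, 29.5 and 18.1% at 12 h and 55.6, 63.3, 78.5 and 96.4% at 24 h. Every 24 h library was above every earlier one (58.5 ± 11.5 points, limma adjusted p = 0.00559).

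In Hoxd, the digit-patterning gene Hoxd13 was at 0, 14.5 and 81.1% at 0 h, 82.5, 13.6 and 30% at 12 h and 86, 100, 100 and 100% at 24 h. Its 24 h libraries were all above the others, though the 0 h libraries spread widely, with a difference of 64.6 ± 21.2 points (limma adjusted p = 0.0448) and of -3.01 after scaling. Hoxd9 was the least covered Hoxd gene, with 0% in the 3 libraries at 0 h, 44.5, 33.2 and 40.3% at 12 h and 43.2, 43, 60.9 and 86.8% at 24 h. It rose already by 12 h, and by 58.5 ± 10.5 points at 24 h (limma adjusted p = 0.00553). In Hoxc, the thoracic gene Hoxc8 was the least covered, at 0, 0 and 29.2% at 0 h, 28.5, 26.4 and 29.4% at 12 h and 56.7, 56.1, 57.7 and 85.6% at 24 h. Its 24 h group stood clear of the others (54.3 ± 10.1 points, limma adjusted p = 0.00581).

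Hoxa9, Hoxb4 and Hoxc4 were also looked at in full. Hoxa9, needed for normal progenitor numbers and an oncogene in myeloid leukaemia, was at 85.8, 100 and 100% at 0 h, 100, 82.1 and 100% at 12 h and 100% in all 4 libraries at 24 h. It was close to fully covered throughout and was not called (4.72 ± 7.69 points, limma adjusted p = 0.723, and -275 after scaling). Hoxb4, which expands blood stem cells when overexpressed, was at 0, 0 and 9.92% at 0 h, 0% in all 3 libraries at 12 h, and 12.4, 32.9, 100 and 78.1% at 24 h. It was the least covered Hoxb gene, its 24 h libraries were above the others, and the difference was 52.5 ± 18 points (limma adjusted p = 0.0358). Hoxc4 was at 19.9, 47.9 and 88% at 0 h, 78, 46.6 and 72.6% at 12 h and 85, 84.4, 86.1 and 100% at 24 h. The 0 and 24 h groups overlapped, and the gene was not called (37 ± 15.4 points, limma adjusted p = 0.126). Its difference turned negative after scaling.

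The extremes of each cluster differed in how early the mark was broad. Hoxa5, a gene of lung development, was the least covered member of Hoxa, at 0% in all 0 h libraries, 0, 0 and 15.8% at 12 h and 0, 21.6, 23.6 and 33.3% at 24 h. Only 33.9% of its region was ever in a peak, so its highest value is near that ceiling, and it was not called (19.6 ± 7.17 points, limma adjusted p = 0.0765). Hoxb2 was at 0, 100 and 100% at 0 h, 100, 100 and 90.4% at 12 h and 100% in every 24 h library. Hoxc12 was at 0, 100 and 100% at 0 h, 85.7, 100 and 100% at 12 h and 100% at 24 h. Hoxd12 was at 65.7, 100 and 100% at 0 h and at 100% in each 12 and 24 h library. In these most covered members of their clusters, replicate 1 was the low library at 0 h, and none was called. The 24 minus 0 h difference of each turned negative after autosomal scaling. By cluster, 2 of 10 Hoxa, 6 of 10 Hoxb, 6 of 9 Hoxc and 6 of 9 Hoxd genes were called higher at 24 h. By position, 7 of 11 anterior, 6 of 11 central and 7 of 16 posterior genes were called. The share over all genes tested was 56.5%, members near 100% at 0 h had little room to be called, and nothing is read from these splits. Peaks were found in every library for 14 members at 0 h, 32 at 12 h and 37 at 24 h, the exception at 24 h being Hoxa5. The same count was not made over all genes.

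**Figure D2:**
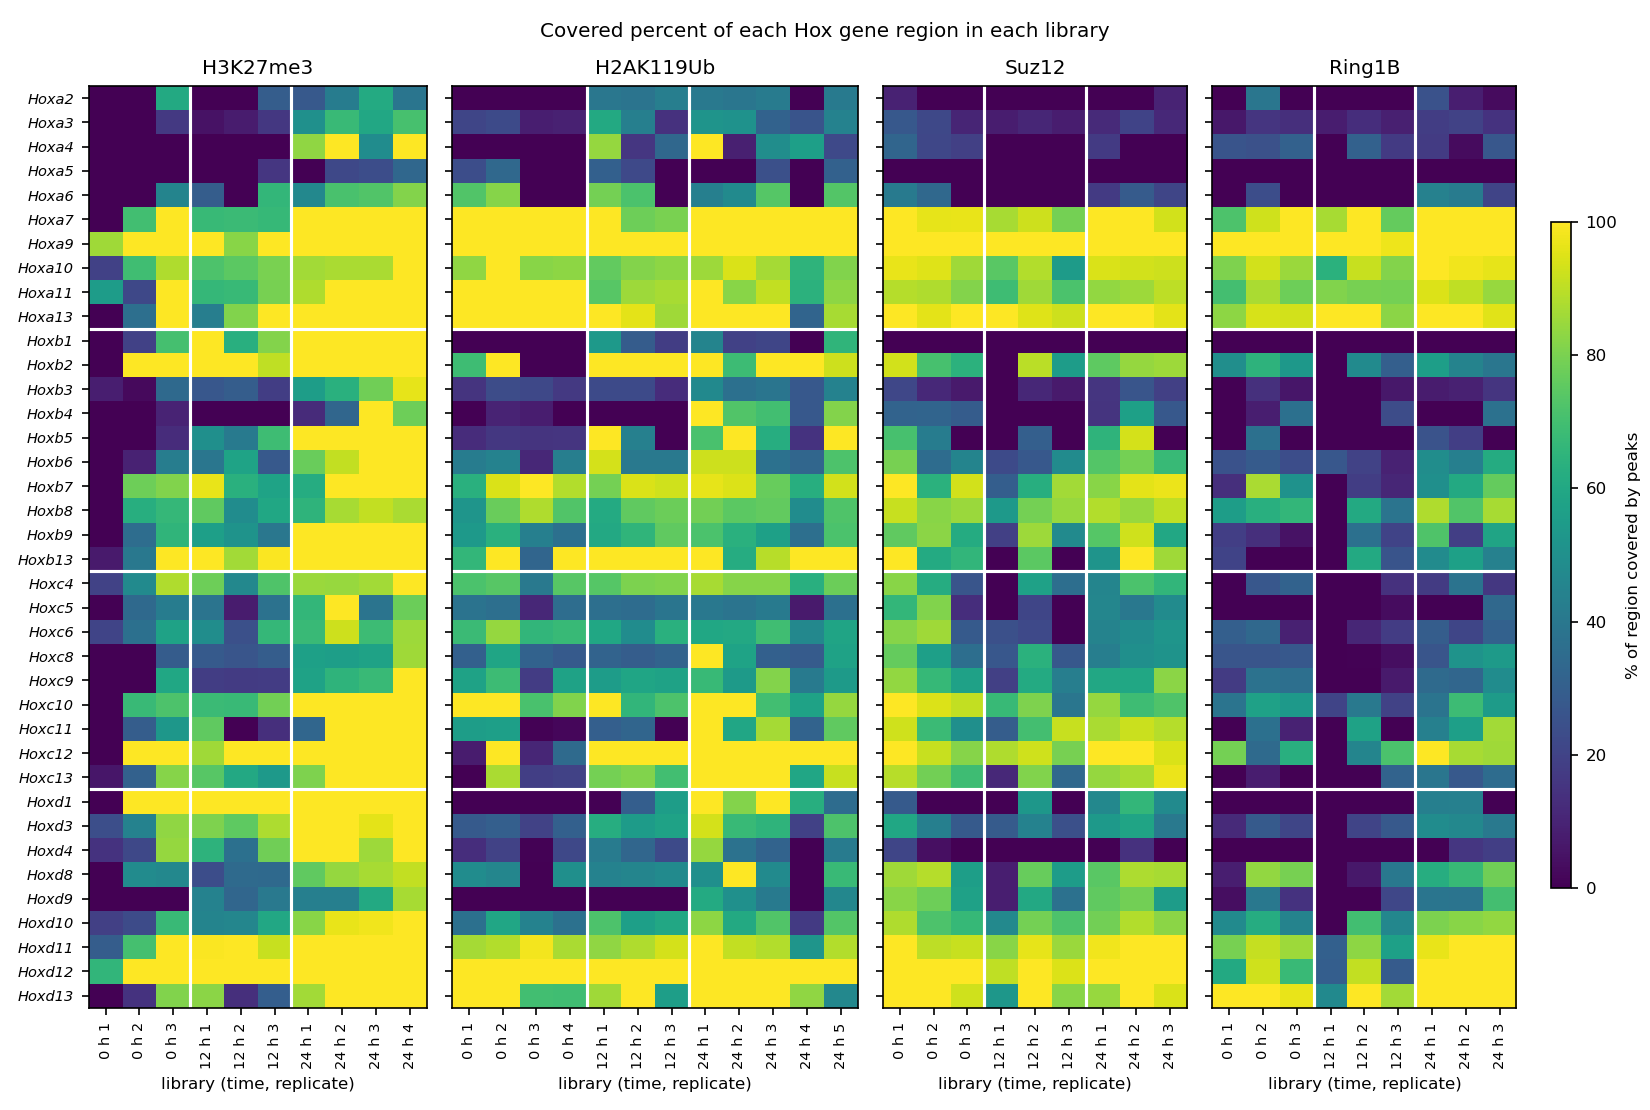
Percent of region covered (colour, 0 to 100) for each of the 38 Hox genes (rows, in chromosomal order by paralogue number) in each library (columns, time and replicate) of 4 antibodies. Hoxa9 is the brightest row, at 82.1% or more in all libraries, Hoxa5 is dark for the subunits in all libraries, and H3K27me3 0 h replicate 1 is a dark column.

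H2AK119Ub covered posterior genes more broadly than anterior ones before stimulation, at means of 66.7 and 17%. The limma fit called 7 of 38 members higher at 24 h than at 0 h, against 31% of the 13845 genes tested, and 0 lower, against 0.296%. The median difference was 16.2 points over the members and 18 over all genes. Of the members, 3 were higher at 12 than at 0 h (Hoxa2, Hoxc12 and Hoxc13), against 22% of all genes, and 4 were higher at 24 than at 12 h (Hoxb3, Hoxb4, Hoxd1 and Hoxd9), against 10.2%. Of the 7 called, 4 were among the 11 anterior genes (median difference 32.5 points), 0 among the 11 central (2.37) and 3 among the 16 posterior (5.25). Posterior genes at 100% in every 0 h library (Hoxa9, Hoxa11, Hoxa13 and Hoxd12) could not be called higher, so nothing is read from this split. The difference in the Hox mean was 19.5 points as deposited and -68.7 after autosomal scaling, in which values can pass 100. Under that scaling 4 members were called higher (28.8% of all genes) and 19 lower (7.55%). The count of 7 was 12 without 24 h replicate 4, and 3 without 0 h replicate 1, 3 or 4. Without any 1 of those 3 libraries, 0 members were called at 12 against 0 h, and 5 without 24 h replicate 4.

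Of the 7 called genes, Hoxa2, Hoxd1 and Hoxd9 had no H2AK119Ub peak at 0 h. Hoxd1, which shapes pain-sensing neurons in the mouse, was at 0% in the 4 libraries at 0 h, 0, 29.8 and 55.8% at 12 h and 100, 81.4, 100, 62.7 and 35.3% at 24 h. The 24 h libraries were all above 0 h, and the difference was 75.9 ± 14.4 points (limma adjusted p = 0.00755). Hoxb4 was at 0, 9.92, 8.14 and 0% at 0 h, 0% in all 3 libraries at 12 h and 100, 72.8, 69.9, 27.4 and 81.3% at 24 h, with every 24 h library above every earlier one (65.8 ± 11.9 points, limma adjusted p = 0.00253). Its 12 h libraries were bare of both marks. Hoxd9 was at 0% in every library at 0 and 12 h, and 61.2, 50.1, 40.9, 0 and 46.1% at 24 h, where replicate 4 alone overlapped the earlier times (39.7 ± 10.1 points, limma adjusted p = 0.0166). Hoxd9 passed the filter for testing only through its 24 h peaks, so its p-value is no separate support for a rise. Hoxa2, which gives the hyoid arch its identity, was at 0% in all 0 h libraries, 39.7, 38.5 and 42.9% at 12 h and 40.6, 39.2, 41.6, 0 and 41.1% at 24 h. Apart from replicate 4 it was level from 12 to 24 h (32.5 ± 8.67 points against 0 h, limma adjusted p = 0.0158). Hoxb3 was at 15, 23.4, 21.7 and 16.7% at 0 h, 22.5, 22.6 and 12.6% at 12 h and 47.5, 36.9, 39, 27.7 and 44.2% at 24 h. Its 24 h libraries were above all others, with 19.8 ± 6.36 points (limma adjusted p = 0.043) as deposited and -19.4 after scaling.

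The other 2 called genes were posterior Hoxc genes. Hoxc12 was at 7.8, 100, 10.7 and 34.5% at 0 h and at 100% in all 3 libraries at 12 h and all 5 at 24 h, overlapping only through 0 h replicate 2 (61.8 ± 15.4 points, limma adjusted p = 0.0187). Hoxc13, a gene of hair and nails, was at 0, 87.4, 18.4 and 19.7% at 0 h, 79.2, 80.9 and 69.7% at 12 h and 100, 100, 100, 59 and 91.6% at 24 h, overlapping 0 h through replicate 2 at 0 h and replicate 4 at 24 h (58.7 ± 15.9 points, limma adjusted p = 0.0346). In both genes 0 h replicate 2 was the high library.

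Members not called included the most covered ones. Hoxa9 and Hoxd12 were at 100% in each of the 12 libraries. Hoxb13, a prostate gene, was at 66.4, 100, 32.5 and 100% at 0 h, 100% at 12 h and 100, 62.1, 89.1, 100 and 100% at 24 h. Hoxc10, active in lumbar motor neurons, was at 100, 100, 71.3 and 81.2% at 0 h, 100, 65.7 and 71.9% at 12 h and 100, 100, 69.7, 57.6 and 84.2% at 24 h. In these genes the times overlapped. Hoxc4 was at 71.6, 74, 40.6 and 73.9% at 0 h, 73.6, 80.1 and 81.1% at 12 h and 87.1, 81.9, 81.8, 62.9 and 77.5% at 24 h. Its 24 and 0 h groups overlapped only through replicate 4 at 24 h, and the difference was 13.2 ± 8.46 points (limma adjusted p = 0.341, and -104 after scaling). The least covered genes of their clusters were Hoxa5 (23.5, 33.9, 0 and 0% at 0 h, 30.7, 22.1 and 0% at 12 h, and 0, 0, 24.5, 0 and 30.9% at 24 h), Hoxb1, Hoxc5 and Hoxd9. Hoxb1 had no coverage at 0 h, 53.7, 29 and 18.2% at 12 h and 45.3, 19.2, 20.9, 0 and 65.4% at 24 h (30.2 ± 12.1 points, limma adjusted p = 0.0958). Hoxc5 was at 38.2, 36.4, 11.1 and 35.8% at 0 h, 36.5, 35.5 and 39% at 12 h and 39.9, 38.3, 41.4, 7.06 and 37.1% at 24 h, level but for 1 low library at 0 h and another at 24 h.

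**Figure D3:**
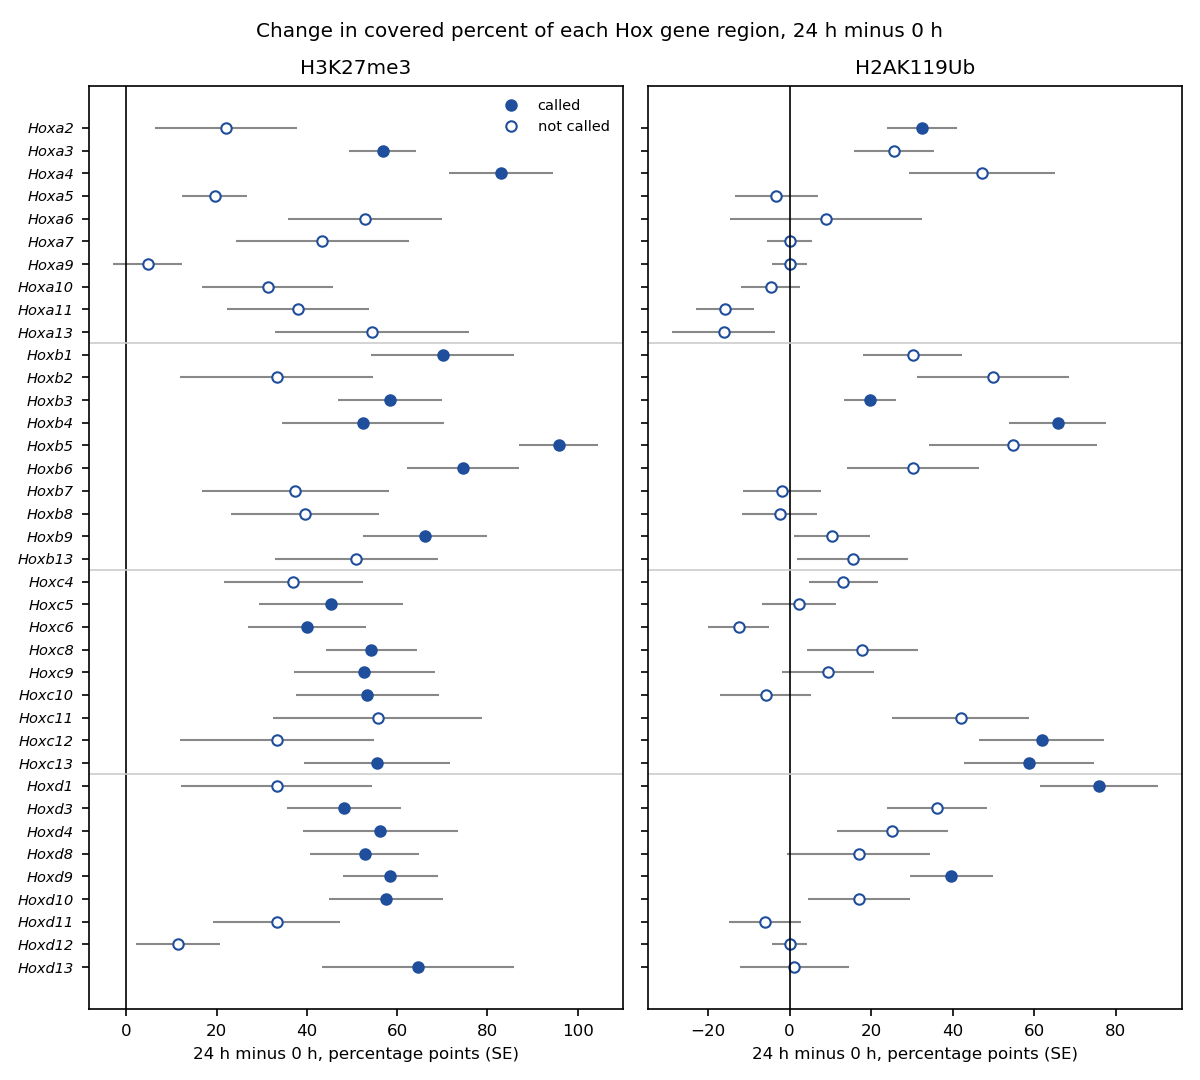
Difference in covered percent, 24 h minus 0 h, in percentage points with the limma SE (x axis), for each of the 38 Hox genes (rows), with filled circles for called genes. As deposited, all 38 H3K27me3 differences are above 0 and 20 are called, and 26 of 38 H2AK119Ub differences are above 0 and 7 are called, while with libraries brought to 1 autosomal coverage the mean differences are -51.5 and -68.7.

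Suz12 and Ring1B had peaks at most Hox genes, and no member was called between 24 and 0 h. The limma fit called 0 of 35 members tested for Suz12 between 24 and 0 h, against 0% of the 18049 genes tested, and 0 of 33 for Ring1B, against 0.085% of 17641. At an unadjusted F-test p under 0.05 there were 9 members for Suz12, with a lowest adjusted p of 0.29, and 15 for Ring1B, with a lowest adjusted p of 0.173. The share of all genes under that p was not counted, so nothing is read from these counts. Median 24 minus 0 h differences were 1.51 points for Suz12 (-1.22 over all genes) and 11.7 for Ring1B (1.04 over all genes). At 12 minus 0 h the medians were -20.1 and -12.3 points, against -1.52 and 0.225 over all genes, and no member was called. Of the members, 33 of 35 and 27 of 33 were below 0, and the share of all genes below 0 was not counted. Replicate 1 at 12 h was the lowest library for both subunits, with Hox means of 30.2% and 15.7%. The lists of these subunits hold a fixed top share of signal blocks, so a list's length does not measure occupancy.

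Hoxa9 was at 100% in all 9 Suz12 libraries and in 8 of 9 Ring1B libraries, the other being at 97.6%. Hoxb4 was at 31.9, 32.4 and 29% for Suz12 at 0 h, 0% in the 3 libraries at 12 h and 15.1, 57 and 27.6% at 24 h. Ring1B covered 0, 8.41 and 37.1% of Hoxb4 at 0 h, 0, 0 and 23.2% at 12 h and 0, 0 and 37.3% at 24 h. Hoxb4 was thus clear of Suz12 peaks at 12 h in every library, while its Ring1B values overlapped. Hoxc4 was at 82.1, 62 and 26.5% for Suz12 at 0 h, 0, 57.1 and 36.3% at 12 h and 45.5, 71.6 and 65.9% at 24 h, and at 0, 27.2 and 31.4%, 0, 0 and 14.4%, and 17.5, 38.2 and 16.2% for Ring1B at the same times. The Hoxc4 groups overlapped for both subunits.

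Across the 40 libraries of the 4 Polycomb antibodies, 6 members had a peak in all: Hoxa9, Hoxa10, Hoxa11 and Hoxa13, which pattern the limbs and the urogenital tract among other tissues, and Hoxd11 and Hoxd12, which pattern the limbs. The lowest value of Hoxa9 in these libraries was 82.1%, and that of the other 5 was 0.332 to 29.6%. At the other end, Hoxa5 had a peak in 10 of 40 libraries, Hoxb1 in 16, Hoxa2 in 19 and Hoxb4 in 22. Such counts were not made over all genes.

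The mean of the posterior genes was above that of the anterior genes in 10 of 10 H3K27me3 libraries, 12 of 12 H2AK119Ub, 9 of 9 Suz12 and 9 of 9 Ring1B libraries. The posterior minus anterior difference was 14.8 ± 4.14 points for H3K27me3, 34.5 ± 12.6 for H2AK119Ub, 57.1 ± 4.04 for Suz12 and 43.6 ± 9.95 for Ring1B (SD over libraries). Central genes were above anterior ones in 9 of 9 Suz12, 9 of 9 Ring1B and 10 of 12 H2AK119Ub libraries, but in 2 of 10 H3K27me3 libraries. For H2AK119Ub the posterior means were 66.7, 74.3 and 79.7% at 0, 12 and 24 h and the anterior means 17, 43.1 and 55.4%, so the difference was 49.7, 31.2 and 24.3 points. These counts are descriptions, since the genes of a class share libraries and neighbouring regions. Region length differed too. The longest anterior regions were Hoxa3, Hoxb3 and Hoxd3 (48009, 44830 and 40279 bases), and the longest posterior one was Hoxd10 (14834 bases). Other anterior regions were short, such as Hoxa2 (6415 bases). The part of length in the difference was not tested.

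**Figure D4:**
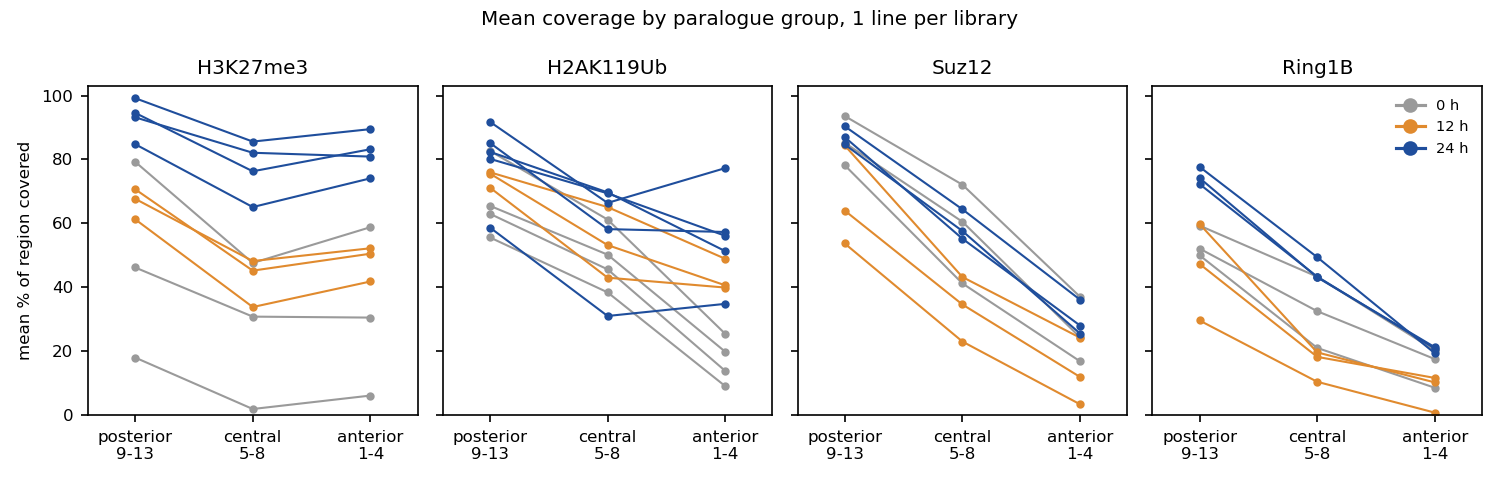
Mean percent of region covered (y axis) of the posterior, central and anterior Hox genes (x axis, with paralogue groups), 1 line per library, coloured by time. Every line is higher at posterior than at anterior genes, by 14.8 points on average for H3K27me3 and 57.1 for Suz12.

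Each cluster was split into an anterior side and a posterior side, the latter starting at Hoxa7, Hoxb7, Hoxc8 or Hoxd8. Suz12 and Ring1B covered the posterior side more in 9 of 9 libraries in every cluster. H2AK119Ub did so in 12, 12, 8 and 11 of 12 libraries (Hoxa, Hoxb, Hoxc and Hoxd), and H3K27me3 in 10, 9, 8 and 0 of 10. In Hoxa, coverage split at Hoxa7: the 49.3 kb from Hoxa7 to Hoxa13 were covered at 79.7 to 97.3% by Suz12, 80.4 to 98.5% by Ring1B and 72.7 to 100% by H2AK119Ub in single libraries, and the 53.2 kb on the anterior side at 5.09 to 23.4%, 5.2 to 16.6% and 5.03 to 56.9%. H3K27me3 covered 65.9, 80.9 and 96.8% of the posterior side at 0, 12 and 24 h and 6.52, 9.87 and 58.6% of the anterior side, so the anterior side was broadly covered at 24 h alone. H2AK119Ub covered 11.1, 38.7 and 38.1% of the anterior side, already at 12 h. The place of the split was chosen after the values were seen, and these are descriptions. In Hoxd, split at Hoxd8, H3K27me3 went the other way, with the posterior side below the anterior side in 10 of 10 libraries (89 and 99.3% at 24 h), while Suz12 covered 88.3% of the posterior and 49.1% of the anterior side at 24 h. Whole-cluster means for H3K27me3 were higher in Hoxd than in Hoxa in 10 of 10 libraries (16.2 ± 8.08 points), and higher in Hoxd than in Hoxc in 10 of 10 (11.4 ± 5.79 points). For Ring1B, Hoxb and Hoxc were above Hoxa in 0 of 9 libraries.

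**Figure D5:**
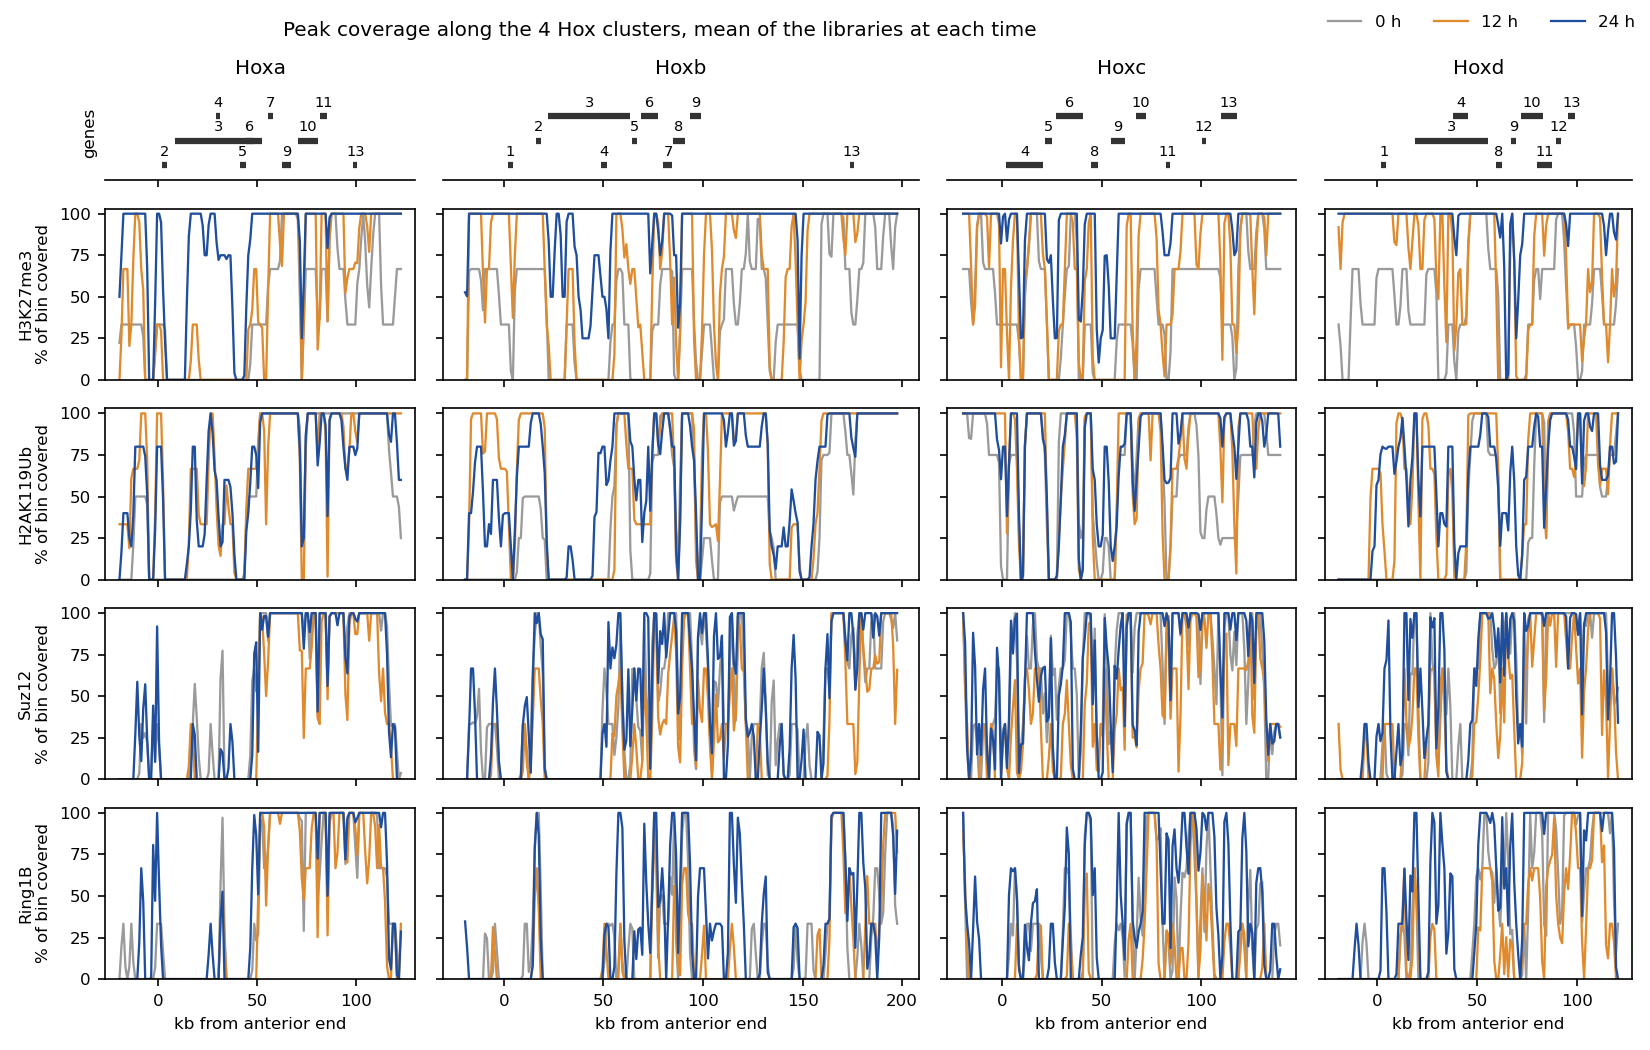
Percent of each 1 kb bin covered by peaks (y axis), as the mean of the libraries at 0, 12 and 24 h (lines), against distance in kb from the anterior end of each cluster (x axis), with gene bodies and paralogue numbers above. In Hoxa the subunits cover the side from Hoxa7 to Hoxa13 at 79.7 to 98.5% in single libraries and leave the anterior side at 5.09 to 23.4%.

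Peaks that touched the clusters were long, but their lengths include parts outside the intervals. The longest Hoxc peak of H3K27me3 24 h replicate 1, chr15:102833063-102921242, lay mostly before the start of Hoxc at 102919131. The longest H3K27me3 peak that touched Hoxa, Hoxb, Hoxc and Hoxd had a median length of 53.4, 76.2, 141 and 118 kb at 24 h, against 16.4, 16.2, 33.8 and 16 kb at 0 h. Ranked within a list by the authors' total signal of a peak, a peak that touched Hoxa was first in each of the 3 Suz12 lists at 0 h and at 24 h and in each of the 3 Ring1B lists at 24 h. The best such peak ranked 1 to 2 in Suz12 lists at 12 h, 3 to 5 in Ring1B lists at 0 h and 3 to 10 in those at 12 h.

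The clusters also hold 22 lncRNA genes, 6 miRNA genes and 1 pseudogene, whose values overlap those of the members around them. Hotair, a lncRNA of the Hoxc cluster, was covered by H3K27me3 at 66.7, 97.9 and 100% at 0, 12 and 24 h. Haglr, beside Hoxd1, was at 51, 94.2 and 100% for H3K27me3 and 0, 51.6 and 76.4% for H2AK119Ub. The mature miRNAs below are shown because 2 families repeat across the clusters, with the seed (bases 2 to 8), which pairs with targets, in capitals. The sequences are those of RefSeq, 5′ to 3′.
miR-10a-5p (Hoxb): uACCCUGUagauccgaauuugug
miR-10b-5p (Hoxd): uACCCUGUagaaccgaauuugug
miR-196a-5p (Hoxb and Hoxc): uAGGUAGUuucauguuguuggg
miR-196b-5p (Hoxa): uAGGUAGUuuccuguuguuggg
miR-615-3p (Hoxc): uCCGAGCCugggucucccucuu
The first 2 share the seed ACCCUGU, the next 2 the seed AGGUAGU, and miR-615-3p has its own. The hairpin genes are at chr11:96317165-96317274 (Mir10a), chr2:74726070-74726137 (Mir10b), chr11:96265164-96265265 (Mir196a-1), chr15:102973350-102973434 (Mir196a-2), chr6:52230081-52230165 (Mir196b) and chr15:103014910-103015001 (Mir615). Genes with the same seed were not all alike in their H3K27me3 peaks at 0 and 12 h. At 24 h the miR-196 hairpins were alike, each in such a peak in 4 of 4 libraries. The Mir196b hairpin, between Hoxa9 and Hoxa10, was in a peak in all libraries of the 4 Polycomb antibodies. The Mir196a-1 hairpin, in Hoxb, was in an H3K27me3 peak in 0 of 3, 1 of 3 and 4 of 4 libraries at 0, 12 and 24 h and in an H2AK119Ub peak in 0 of 4, 1 of 3 and 5 of 5. Mir196a-2, in Hoxc, was in an H3K27me3 peak in 0 of 3, 0 of 3 and 4 of 4 libraries. For the other family, Mir10a was in an H3K27me3 peak in 0 of 3, 0 of 3 and 2 of 4 libraries and Mir10b in 1 of 3, 2 of 3 and 4 of 4, and Mir615 was in one in 0 of 3, 0 of 3 and 3 of 4.

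Genes of the wider pathway were set beside the clusters. Of 10 homeobox genes related to the Hox family, such as the caudal gene Cdx1 and the even-skipped gene Evx1, 1 of 10 tested was called higher for H3K27me3 at 24 than at 0 h, and 2 of 9 for H2AK119Ub. Over all genes tested the shares called higher were 56.5% and 31%, and they stand for each list below. Cdx1 was covered by H3K27me3 at 27.8, 76.9 and 100% at 0, 12 and 24 h (72.2 points, limma adjusted p = 0.00279) and by H2AK119Ub at 0, 10.7 and 64.9% (64.9 points, limma adjusted p = 0.00159). Evx1, next to Hoxa13, was at 87.7, 100 and 100% for H3K27me3 and was not called. Means of the list were 66.4, 89.8 and 99.4% for H3K27me3 and 0% for H3K27ac. The Pbx, Meis and Pknox genes, whose proteins bind DNA together with Hox proteins, were sparsely covered, at means of 1.92, 3.61 and 13.6% for H3K27me3, with 3 of 6 tested called higher (2 of 5 for H2AK119Ub). Of 18 genes for regulators of Hox chromatin, 3 of 7 tested were called higher for H3K27me3 (means 3.6, 5.09 and 11.9%) and 2 of 14 for H2AK119Ub, and their H3K27ac means were 4.01, 13.8 and 16.7%. Genes flanking the clusters had H3K27me3 means of 5.24, 8.38 and 19% and H3K27ac means of 2.54, 14.1 and 12.7%, so H3K27ac was found on the flanks and not at the Hox genes. Of 11 flanking genes tested for H3K27me3, 6 were called higher (4 of 15 for H2AK119Ub), among them Nfe2, an erythroid and platelet transcription factor gene beside Hoxc, at 0, 0 and 53.4% (limma adjusted p = 0.000261). Nfe2 passed the filter for testing only through its 24 h peaks, so its p-value is no separate support for a rise.

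Over 12 means (4 Polycomb antibodies at 3 times), the 5 genes outside the clusters nearest to the mean Hox pattern, by Euclidean distance, were Tal1 (25.4), Tfap2a (29.1), Mafa (33.4), Gata3 (33.7) and Gata6os (33.9). The Hox genes themselves lay farther from that mean, at 34.1 (Hoxb6) to 170 (Hoxa9), so it is the pattern of no single member. Tal1, a transcription factor gene of blood stem and erythroid cells, was covered by H3K27me3 at 41.3, 55.9 and 83.5% at 0, 12 and 24 h.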

How the data were processed

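The authors deposited 1 SEACR peak list per sample, named for the Cast genome, with peak coordinates in mm10 and, per peak, the total and highest signal. Per the file names, histone marks were called "norm relaxed" and the subunits "non, 0.01, stringent". Tools listed in the submitters' processing notes are Bowtie2 2.3.4.1, deepTools 3.5.1, Picard and Trimmomatic 0.32. Not given in the sources used here were the SEACR version, how alleles were split and the depth, so no counting error can be stated. The deposited signal served to rank and filter peaks of one list. The sixth column, another kind of value the authors deposited as text, was not used.

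Overlapping peaks were merged and each gene region (RefSeq, GRCm38.p6, 2 kb on each side) was given its covered percent. Genes with a peak in at least 3 libraries of an antibody were fitted together by limma 3.58.1 in R 4.3.3 (moderated F-test over 3 times, trend and robust, Benjamini-Hochberg over all genes tested), checked on simulated data. Other steps used matplotlib 3.10.9, scipy 1.17.1, numpy 2.4.6 and pandas 2.3.3 under Python 3.11.15. The members and the gene lists were chosen with earlier results of these data known. Libraries are given in full for Hoxa9, Hoxb4 and Hoxc4, for at most 8 called members with the largest differences per antibody, and for the most and least covered member of each cluster for H3K27me3 and H2AK119Ub. Alternatives were scaling by autosomal coverage, other filters and lists, gene bodies without flanks, a replicate block, limma without its options, and leaving out each library.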

Additional observations from a re-analysis of the deposited data

Results flagged for a closer look

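In 9 of 61 groups of 4 or 5 libraries looked at, 1 library lay far from the others by Dixon's test, of which chance gives about 1 in 20. For H3K27me3 at 24 h, Hoxc4 was at 100% in replicate 4 (84.4 to 86.1% in the other 3), Hoxc8 at 85.6% in replicate 4 (56.1 to 57.7%) and Hoxd13 at 86% in replicate 1 (100% in the other 3). For H2AK119Ub at 0 h, replicate 3 was low at Hoxc4, with 40.6% (71.6 to 74% in the others), and at Hoxc5, with 11.1% (35.8 to 38.2%). For H2AK119Ub at 24 h, replicate 4 was low at Hoxa2, with 0% (39.2 to 41.6%), at Hoxc5, with 7.06% (37.1 to 41.4%), and at Hoxc13, with 59% (91.6 to 100%). Hoxb13 was low in replicate 2 of the same group, with 62.1% (89.1 to 100%). H2AK119Ub 24 h replicate 4 also covered the least autosomal length of its group, 59.1 Mb, and its part in these values was not tested.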

How the results depend on the processing

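The count of Hox genes called between 24 and 0 h for H3K27me3, 20 as reported, was 4 after scaling by autosomal coverage (2 higher, 2 lower), 13 with no filter beyond 1 library, 5 with lists of equal length and 11 to 28 with 1 library left out. Between 12 and 0 h the count of 4 was 3 after scaling (1 higher, 2 lower), 2 with stricter lists, 1 with equal lists and 2 to 16 with 1 library left out. Between 24 and 12 h the count of 14 was 2 after scaling, 5 with equal lists and 9 to 20 with 1 library left out. For H2AK119Ub the count of 7 was 23 after scaling (4 higher, 19 lower), 2 with stricter lists, 1 with equal lists and 3 to 12 with 1 library left out. The count of 3 at 12 h was 21 after scaling (1 higher, 20 lower), 1 with equal lists and 0 to 5 with 1 library left out, and the count of 4 between 24 and 12 h was 0 with stricter or equal lists and 3 to 5 with 1 library left out. For Suz12 stricter lists gave 1 call, lower at 24 h. The posterior minus anterior difference was 22 points with equal lists for H3K27me3 and 47.7 for H2AK119Ub, and 26.2 and 60.5 after scaling. With 1 library left out it was 14.1 to 15.3 points for H3K27me3, 32.4 to 36.3 for H2AK119Ub, 56.6 to 58 for Suz12 and 41.7 to 45.4 for Ring1B. Neither scaling nor leaving out a library could turn its sign, since the difference was above 0 in every library. Scaling turned the sign of several 24 minus 0 h differences. For H3K27me3 these included Hoxa9 (-275), Hoxd12 (-243), Hoxb9 (-24.8), Hoxd13 (-3.01) and Hoxb1 (-2.77). Hoxa7, Hoxb2, Hoxc4 and Hoxc12 turned negative too. For H2AK119Ub they included Hoxb13 (-108), Hoxc4 (-104), Hoxc5 (-53.5) and Hoxb3 (-19.4). The Hox means turned as well (-51.5 and -68.7). Scaling lowers regions at 100% in every library by construction, and regions broadly covered at 0 h had no room to rise in proportion. Beyond this arithmetic, the cause was not tested.

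The titles do not say whether same-numbered libraries share animals. No correlation of same-numbered libraries passed 0.1 (-0.0592 to 0.0819 in 9 H3K27me3 pairs, -0.0667 to 0.0731 in 10 H2AK119Ub pairs). With so few libraries per time, this cannot exclude pairing. With the replicate block the H3K27me3 counts were 10 for 24 against 0 h, 2 for 12 against 0 h and 9 for 24 against 12 h, and the H2AK119Ub counts 3, 0 and 3.

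Depth is unknown, covered length differs between libraries, and 0% means no peak above the authors' threshold.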
